A study of Mus musculus with 4 samples.

Results

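The genes described here are 38 genes that fold, translocate and degrade proteins in the endoplasmic reticulum (ER). They are the members of a fixed list of gene symbols, drawn up with earlier results of these data known, and all 38 were found among the 30175 gene names of the array. Each gene was read from its brightest probe, and 37 of the 38 were well above background on every array. *Derl3*, which encodes a derlin of the ER membrane, was below the limit for well above background on all 4 arrays and has no ratio. Gene expression was measured on 4 arrays, 1 per condition, in NIH-3T3:Per2-Luc, an immortalized mouse embryonic fibroblast line that carries luciferase driven by the *Per2* promoter. The control received 0 mM H2O2 and an exchange to fresh medium, and its label gives 4 h. The other 3 cultures received a critical oxidative stress pulse (cOS-pulse) of 5 mM H2O2 for 10 min and were harvested 4 h, 20 h and 32 h later. The study asked which genes follow the cOS-pulse early, at 4 h, and which differ between the later times.

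Proteins of the secretory pathway enter the ER through the Sec61 channel, are held by chaperones and lectins while they fold, and receive their disulfide bonds from isomerases that are reoxidized by ER oxidases. Chains that fail to fold are passed back to the cytosol, marked with ubiquitin and degraded, a route called ER-associated degradation. When unfolded protein accumulates, the sensors IRE1 (encoded by *Ern1*), ATF6 and PERK start the unfolded protein response, in which *Xbp1* mRNA is spliced and many of the genes described here are transcribed.

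A known control element of these genes is the ER stress response element, CCAAT, any 9 bases and CCACG, bound by NF-Y and ATF6. Promoters were searched on both strands for this element, for a second form (ATTGG, any 1 base, CCACG) and for the core of the unfolded protein response element (TGACGTG). A RefSeq table of promoters (GRCm38.p6, 250 bases before to 50 bases after each transcript start) held 32 of the 38 genes. The first element was found in 9 of the 32 genes, or 28.1%. Over the whole table it was found in 0.137% of 27025 genes and in 0.119% of 32851 promoters. The 9 were *Hspa5*, *Hsp90b1*, *Calr*, *Canx*, *Creld2*, *Pdia6*, *Ero1lb*, *Derl3* and *Syvn1*. The second form was found in *Herpud1*, and in 0.0444% of all genes and 0.0365% of all promoters. TGACGTG was found in *Hspa5*, *Txndc5* (1 of its 3 promoters) and *Ube2j1*. It was found in 2.22% of all genes and 2.01% of all promoters. The 250 bases before the start of *Hspa5* (chr2:34771840-34772089, plus strand), *Ero1lb* (chr13:12565633-12565882, plus strand) and *Herpud1* (chr8:94386179-94386428, plus strand) are shown 5′ to 3′, since these were the genes with an element that were at least 2-fold higher at 4 h. Capitals mark the matches.
Hspa5: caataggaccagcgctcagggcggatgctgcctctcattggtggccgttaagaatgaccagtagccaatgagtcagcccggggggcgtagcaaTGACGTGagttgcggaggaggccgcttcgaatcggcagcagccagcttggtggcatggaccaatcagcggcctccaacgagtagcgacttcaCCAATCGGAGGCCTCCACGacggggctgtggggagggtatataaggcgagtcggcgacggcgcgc
Ero1lb: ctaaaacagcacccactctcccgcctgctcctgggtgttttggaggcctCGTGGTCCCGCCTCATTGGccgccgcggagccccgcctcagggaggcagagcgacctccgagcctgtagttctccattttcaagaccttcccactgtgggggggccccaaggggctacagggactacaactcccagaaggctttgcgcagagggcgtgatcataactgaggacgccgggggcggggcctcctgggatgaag
Herpud1: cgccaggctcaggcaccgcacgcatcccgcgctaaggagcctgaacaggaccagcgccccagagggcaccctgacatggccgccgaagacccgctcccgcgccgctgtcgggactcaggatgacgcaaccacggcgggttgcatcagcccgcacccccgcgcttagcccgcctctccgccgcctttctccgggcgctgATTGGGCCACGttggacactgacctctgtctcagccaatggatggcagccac
In *Hspa5* the element lay 65 to 47 bases before the start and TGACGTG 157 to 151 bases before it. In *Ero1lb* the element ran opposite to the gene, 201 to 183 bases before the start, so its line shows the reverse complement, from CGTGG to ATTGG. In *Herpud1* the second form lay 52 to 42 bases before the start.

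The elements of 6 further genes are given to show how the 9 bases between the fixed ends differed. Each is written with CCAAT first, which for *Calr*, *Creld2* and the second site of *Hsp90b1* is the strand opposite to the gene, and capitals mark the fixed bases.
Hsp90b1, chr10:86705638-86705656: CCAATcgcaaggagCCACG
Hsp90b1, chr10:86705533-86705551: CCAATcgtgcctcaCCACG
Calr, chr8:84847075-84847093: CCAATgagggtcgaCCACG
Canx, chr11:50325800-50325818: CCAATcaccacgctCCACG
Creld2, chr15:88819520-88819538: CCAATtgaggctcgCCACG
Pdia6, chr12:17266491-17266509: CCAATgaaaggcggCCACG
Syvn1, chr19:6046532-6046550: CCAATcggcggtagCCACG
The genes of *Hsp90b1*, *Calr* and *Canx* lie on the minus strand and those of *Creld2*, *Pdia6* and *Syvn1* on the plus strand. The distances before the start ran from 212 to 26 bases.

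Signals were log2 transformed and the 75th percentile of each array was subtracted, so a scaled log2 signal of 0 is the level of that percentile. A log2 ratio of 1 is a 2-fold difference between 2 arrays. With 1 array per condition no test was possible, and the text holds no p-value. The error printed beside a ratio is the one that the scanner's software gave for the spots, and it does not cover the spread between cultures. It was nearly the same, 0.20, for most of these genes. For those genes, more than the spot error is close to a fixed cut at 0.20. All 3 times share the single control. In whole cultures, fewer cells with a transcript and less of it per cell cannot be told apart.

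At 4 h after the cOS-pulse, 7 of the 37 measured genes exceeded the control by at least 2-fold and 0 fell short of it by as much. Among all 18506 genes with a ratio, 11.1% were at least 2-fold higher and 8.26% at least 2-fold lower. Among the 15806 genes well above background on both arrays, as all 37 were, 8.25% were at least 2-fold higher. The 7 genes were *Ero1lb*, *Hspa5*, *Serp1*, *Derl1*, *Herpud1*, *Hyou1* and *Vapb*. The median log2 ratio of the 37 was 0.56 against 0.22 over all genes, and 34 of the 37 were above 0, as were 63.7% of all genes. The count of 7 depended on the scaling: it was 6, 4, 3, 2 or 1 under the other 5 scalings, with *Ero1lb* the gene that passed under each. Set against the median of all genes, which takes out such a shift, the median of the 37 lay 0.33 above it at 75th percentile scaling. It lay between 0.29 and 0.33 above it under the other scalings. Every scaling but quantile scaling moves an array by 1 constant, which this measure takes out, so only quantile scaling could change it by much. By that measure 28 of the 37 were above the median of all genes, 3 were at least 2-fold above it (*Ero1lb*, *Hspa5* and *Serp1*, against 7.57% of all genes), and 1 was at least 2-fold below it (*Edem2*, against 11.7%). The share of 3 in 37 is close to that of all genes.

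**Figure D1:**
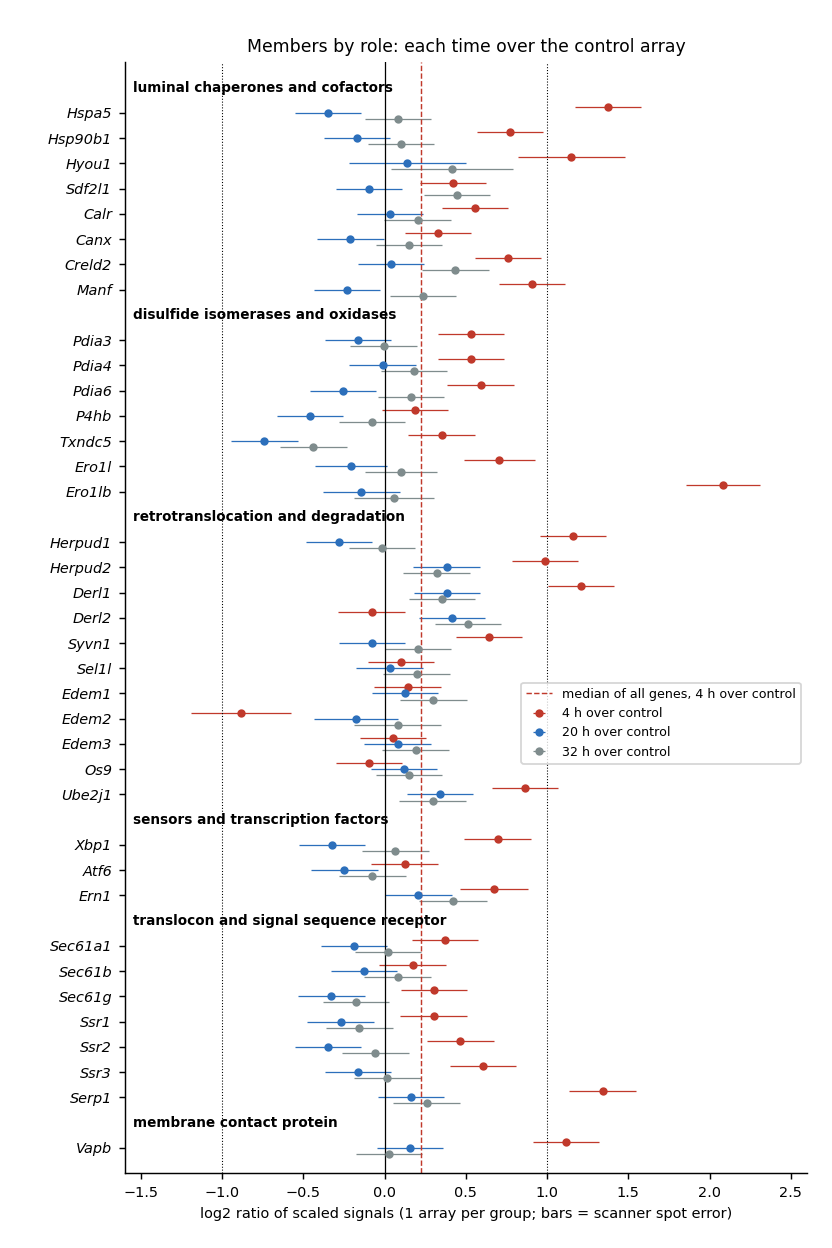
Log2 ratio of each time after the cOS-pulse over the control array (x axis) for the 37 measured genes, grouped by role (y axis). Points are 1 array over 1 array, bars are the scanner's spot error, dotted lines mark 2-fold and the dashed line the median of all genes at 4 h, 0.22; 34 of the 37 red points (4 h) lie right of 0, and no blue (20 h) or grey (32 h) point passes 2-fold.

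The luminal chaperones and their cofactors were all higher at 4 h, with 8 of 8 above 0 by more than the spot error (45.6% of all genes were) and a median log2 ratio of 0.77. All 8 also lay above the median of all genes at this scaling. *Canx* fell below that median under 1 of the other scalings and below the control under 3, and the other 7 stayed above both. The scaled log2 signal of *Hspa5*, the Hsp70 chaperone BiP that also holds the sensors inactive, was 5.87 in the control, 7.24 at 4 h, 5.52 at 20 h and 5.95 at 32 h. Its 4 h array stood apart from the other 3, and its 4 h log2 ratio was 1.37 ± 0.20, or 2.59-fold. *Hspa5* stayed at least 2-fold above the control under 3 of the 5 other scalings and was 0.93 to 1.15 above the median of all genes across them. *Hyou1*, the large Hsp70-like exchange factor of BiP, gave −4.07, −2.93, −3.94 and −3.66 on the control, 4 h, 20 h and 32 h arrays. Its 4 h ratio was 1.15 ± 0.33, with a wider spot error at low signals, and 0.69 with another background correction (normexp). *Manf*, a small secreted ER protein, was 0.91 higher, *Hsp90b1*, the Hsp90 of the ER lumen, 0.77, and *Creld2*, a cysteine-rich ER protein, 0.76. The lectins that hold glycoproteins were less far from the control, *Calr* by 0.56 and *Canx* by 0.33. *Sdf2l1*, a partner of an ER DnaJ protein, was 0.42 higher at 4 h and 0.45 higher at 32 h, so its control and 20 h arrays were the low ones.

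Among the disulfide isomerases and oxidases, the oxidase *Ero1lb* had the largest 4 h ratio of the 37 genes. Its scaled log2 signal was −2.70 in the control, −0.62 at 4 h, −2.84 at 20 h and −2.64 at 32 h, and only the 4 h array was high. The ratio was 2.08 ± 0.23, or 4.24-fold, and 97.6% of all genes had a lower one. *Ero1l*, the other oxidase of the pair, was 0.71 ± 0.22 higher. The isomerases *Pdia3*, *Pdia4* and *Pdia6* were 0.53 to 0.59 higher, *Txndc5* 0.35, and *P4hb*, the classical protein disulfide isomerase, 0.19, within its spot error. *P4hb* was also the one of these 7 that lay below the median of all genes. The median of the 7 was 0.53, and the signs of *P4hb* and *Txndc5* turned under 4 and 2 of the 5 other scalings.

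Of the 11 measured genes of retrotranslocation and degradation, 5 were higher at 4 h by more than the spot error, or 45.5%, near the 45.6% of all genes. *Herpud1*, *Herpud2*, *Derl1*, *Syvn1* and *Ube2j1*, parts and organizers of the ubiquitin ligase complex of the membrane, were these 5. *Derl2*, *Sel1l*, *Edem1*, *Edem3* and *Os9* were within the spot error of the control, and *Edem2* was lower by more than it, as were 26.6% of all genes. The median of the 11 was 0.14, below the 0.22 of all genes. *Herpud1*, which scaffolds the complex, gave 1.65 in the control, 2.81 at 4 h, 1.37 at 20 h and 1.63 at 32 h, and a 4 h ratio of 1.16 ± 0.20. *Derl1*, a derlin of the exit channel, gave 1.66, 2.87, 2.04 and 2.01, so that both later arrays also stood above the control. Its 4 h ratio was 1.21 ± 0.20, but a second probe of this gene gave 0.18. *Herpud2*, a homologue of *Herpud1*, was 0.99 higher, just under 2-fold. *Ube2j1*, the ubiquitin-conjugating enzyme, was 0.86 higher and *Syvn1*, the ligase HRD1, 0.64. *Edem2*, a mannosidase-like protein that trims glycans of misfolded chains, gave −3.00 in the control, −3.89 at 4 h, −3.18 at 20 h and −2.92 at 32 h. Its 4 h array was the low one, with a ratio of −0.88 ± 0.31. It was lower at 4 h under every scaling tried, and at least 2-fold lower under all 5 others. With the normexp correction the ratio was −0.37. *Edem1* was 0.14 and *Edem3* 0.05 above the control, *Sel1l*, the adaptor of HRD1, 0.10 above it, the lectin *Os9* 0.10 below and *Derl2* 0.08 below. The signs of *Edem1*, *Edem3* and *Sel1l* turned negative under 3 or 4 of the 5 other scalings.

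The mRNAs of the sensors and of the transcription factor made from spliced *Xbp1* gave a median 4 h ratio of 0.67 over 3 genes. *Xbp1* gave 4.66 in the control, 5.36 at 4 h, 4.34 at 20 h and 4.73 at 32 h, highest at 4 h and lowest at 20 h. Its 4 h ratio was 0.70 ± 0.20, and the probe does not separate spliced from unspliced mRNA. *Ern1*, the kinase and RNase that splices *Xbp1*, gave −1.48, −0.81, −1.27 and −1.06, with all 3 pulsed arrays above the control and a 4 h ratio of 0.67 ± 0.21. *Atf6*, the membrane-bound factor released by proteolysis, gave −0.99, −0.87, −1.24 and −1.07. Its 4 h ratio of 0.12 ± 0.21 was within the spot error and turned negative under 4 of the 5 other scalings.

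In the translocon group *Serp1*, a small protein that binds Sec61 and is named for its tie to ER stress, was the one gene at least 2-fold higher at 4 h. It gave 1.90 in the control, 3.24 at 4 h, 2.06 at 20 h and 2.16 at 32 h, a ratio of 1.34 ± 0.20 and 2.53-fold. Under the 5 other scalings *Serp1* was 1.11 to 1.14 above the median of all genes, and *Hspa5* 0.93 to 1.15. Only quantile scaling could change these values by much. The channel subunits were closer to the control: *Sec61a1* was 0.37, *Sec61g* 0.30 and *Sec61b* 0.17 higher, the last within its spot error. Under other scalings the sign turned for *Sec61a1* (1 of 5), *Sec61g* (3 of 5) and *Sec61b* (4 of 5). The subunits of the signal sequence receptor were 0.30 (*Ssr1*), 0.47 (*Ssr2*) and 0.61 (*Ssr3*) higher, and the sign of *Ssr1* turned under 2 of the 5. *Vapb*, a tether between the ER and other membranes, gave 2.87, 3.99, 3.03 and 2.90 and a 4 h ratio of 1.12 ± 0.20 at its brightest probe.

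**Figure D2:**
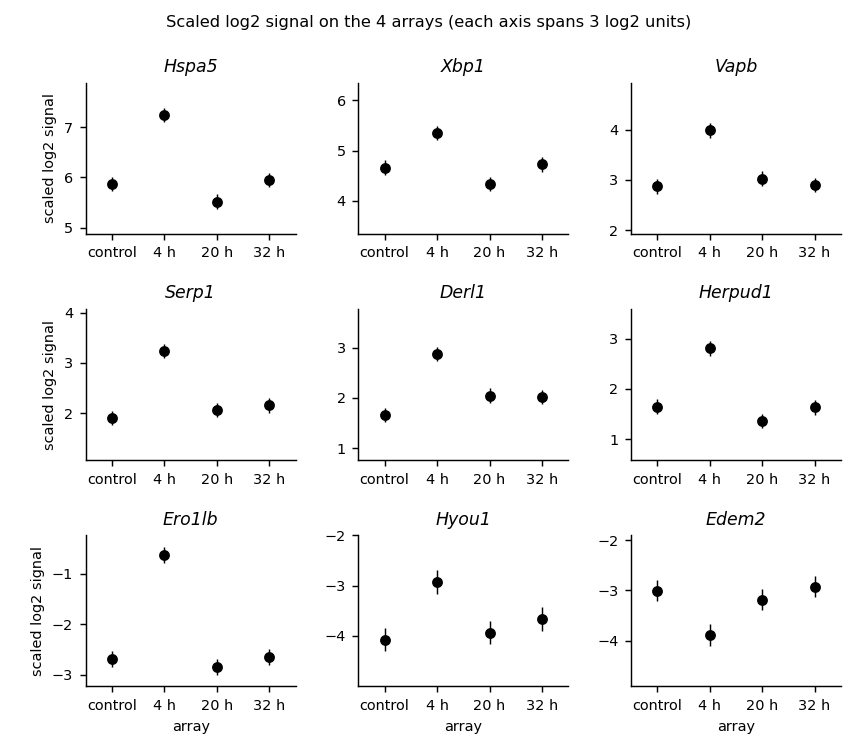
Scaled log2 signal (y axis, 3 log2 units in every panel) on the control, 4 h, 20 h and 32 h arrays (x axis) for the 7 genes at least 2-fold higher at 4 h, *Xbp1* and *Edem2*. Points are single arrays and bars the scanner's spot error; the 4 h point is the highest in each panel but that of *Edem2*, where it is the lowest at −3.89.

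The 4 h ratios of the genes with and without the element described above overlapped, and the difference between them was not tested. The 8 measured genes with CCAAT, 9 bases and CCACG had a median ratio of 0.70, from 0.33 for *Canx* to 2.08 for *Ero1lb*, and 2 of the 8 were at least 2-fold higher. The 23 measured genes without it had a median of 0.42, from −0.88 to 1.34, and 3 of the 23 were at least 2-fold higher. These 3 were *Herpud1*, with the second form, and *Serp1* and *Vapb*, in which none of the 3 motifs was found in this window. *Hyou1*, *Manf*, *Derl1*, *Atf6*, *Sec61a1* and *Ssr2* were not matched in the promoter table.

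Of the 37 measured genes, 9 were read by more than 1 probe, and for 3 of them the probes differed by over 1 log2 unit at 4 h. The 2 probes of *Vapb* gave 1.12 and −0.43 and so lay on both sides of the control. The second *Vapb* probe gave scaled log2 signals of −0.22 in the control, −0.66 at 4 h, −0.49 at 20 h and −0.18 at 32 h, lowest where the first was highest. The 2 probes of *Derl1*, 1609 bases apart in mm9, gave 1.21 and 0.18, and the second gave 1.20, 1.38, 1.20 and 1.47 on the 4 arrays. For *Ssr1* the brightest probe gave 0.30 and the others 1.89 and 0.07. The *Ssr1* probe at 1.89 gave −2.26 in the control, −0.37 at 4 h, −1.97 at 20 h and −1.70 at 32 h. The 3 probes of *Derl2* gave −0.08, −0.16 and −0.87, none above the control. The probes of *Pdia6*, *Ube2j1*, *Sec61b* and *Ssr3* differed by under 0.3. Of the 4 probes of *Ern1*, 1 was well above background on all arrays. With the median over the detected probes in place of the brightest probe, 5 genes were at least 2-fold higher at 4 h, and *Derl1* and *Vapb* were not among them.

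**Figure D3:**
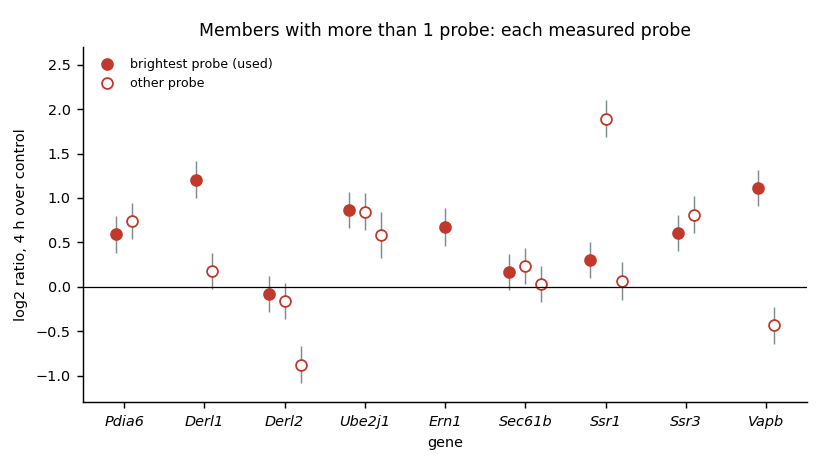
Log2 ratio of 4 h over control (y axis) for each probe well above background on both arrays, for the 9 genes (x axis) that have more than 1 probe. Filled points are the brightest probes, open points the others and bars the scanner's spot error; the probes of *Vapb* lie at 1.12 and −0.43, and those of *Ssr1* reach from 0.07 to 1.89.

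At 20 h and at 32 h none of the 37 genes differed from the control by 2-fold in either direction. The control is labelled 4 h, so these ratios also span a difference in harvest time, which cannot be told apart from the cOS-pulse. Over all genes 1.46% were at least 2-fold higher and 3.56% at least 2-fold lower at 20 h, and 2.24% and 2.77% at 32 h. The median ratio of the 37 was −0.14 at 20 h, where that of all genes was 0.0037, and 0.15 at 32 h, where that of all genes was −0.0045. At 20 h 14 of the 37 were above 0 and at 32 h 29 were (50.5% and 49.4% of all genes). *Txndc5* was the farthest below the control, by −0.74 at 20 h and −0.44 at 32 h, and *Derl2* the farthest above it, by 0.41 and 0.51. *Ube2j1*, *Herpud2* and *Derl1* were each 0.29 to 0.38 above the control at both times, and these 3, *Derl2* and *Txndc5* kept their signs under all scalings. Other probes differed: those of *Ube2j1* gave −0.02 and −0.20 at 20 h and −0.11 and −0.24 at 32 h, and the second probe of *Derl1* gave −0.003 at 20 h and 0.27 at 32 h. All 7 disulfide isomerases and oxidases were below the control at 20 h, with a median of −0.21, though the signs of *Pdia3*, *Pdia4*, *Pdia6*, *Ero1l* and *Ero1lb* turned without scaling. All 8 luminal chaperones were above the control at 32 h under each scaling tried, with a median of 0.22. However, only 4 of the 8 were above it by more than the spot error (21.5% of all genes were). The sign of the 20 h median depended on the scaling: without any scaling it was 0.19 and with spike-in scaling 0.054. Against the median of all genes it was −0.15, and −0.15 to −0.12 under the other scalings, of which only quantile scaling could change this measure by much. It turned to 0.017 with no filter on detection, where the median of all genes was −0.17.

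Across the 4 arrays the 4 h array gave the highest signal for 30 of the 37 genes and the 20 h array the lowest for 22. Among the 15274 genes well above background on all arrays the 4 h array was highest for 51.4% and the 20 h array lowest for 21%. The 32 h array was the lowest for 0 of the 37 (21.8% of all genes), here and under each of the 5 other scalings (12.3% to 20.7% of all genes). It was the highest for *Derl2*, *Edem1*, *Edem2*, *Edem3*, *Os9*, *Sdf2l1* and *Sel1l*, or 7 of the 37, close to the 16.4% of all genes. Under the other scalings it was the highest for 8, 10, 13, 15 or 19, where the shares of all genes were 18.7%, 20.8%, 14.9%, 9.72% and 23.3%. The control array was the lowest for 12 of the 37 and 23.8% of all genes. The count at 4 h fell to 13 under spike-in scaling, where the share of all genes was 20.4%, and that at 20 h to 4 without scaling, where it was 2.14%.

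The 20 h and 32 h arrays do not share the control when set against each other, and here the genes lay together on one side. The signal was lower at 20 h than at 32 h for 33 of the 37, while 47.8% of all 16791 genes were lower at 20 h. The median ratio of 20 h over 32 h was −0.21 against 0.0074 over all genes, and no gene of the 37 reached 2-fold (0.947% of all genes were at least 2-fold higher and 2.11% at least 2-fold lower). The 4 exceptions were *Herpud2*, *Derl1*, *Ube2j1* and *Vapb*, between 0.03 and 0.13 at their brightest probes. The second probes of *Derl1* and *Vapb*, described above, were lower at 20 h than at 32 h. A difference larger than the spot error was seen in 17 of the 37 downward (10.1% of all genes) and in 0 upward (8.43% of all genes). With median scaling the counts were 12 downward and 1 upward (6.77% and 16.3% of all genes), and without scaling 8 and 2 (4.92% and 32.5%). The genes farthest down were *Sdf2l1* at −0.54, *Manf* at −0.47, *Hspa5* at −0.43, *Pdia6* at −0.42, *Creld2* and *Xbp1* at −0.39, *P4hb* at −0.38 and *Canx* at −0.36. These are differences of 1.5-fold or less. By role the medians were −0.38 for the luminal chaperones and −0.30 for the disulfide isomerases and oxidases. They were −0.21 for the sensors with *Xbp1*, −0.18 for the translocon and −0.11 for degradation. All 8 chaperones, all 7 isomerases and oxidases, *Xbp1*, *Ern1*, *Atf6* and all 7 genes of the translocon group were lower at 20 h. Without scaling *Derl2*, *Edem3*, *Os9*, *Sec61g*, *Ssr1* and *Serp1* turned to the other side of 0, and *Os9* also did so with median and spike-in scaling. Against the median of all genes 33 of the 37 were lower under every scaling tried, with a median of −0.21 under each. Every scaling but quantile scaling moves an array by 1 constant, which this measure takes out, so only quantile scaling could change it by much. With no filter on detection the median was −0.12. Each time rests on 1 array, so the hour cannot be told apart from the culture or the array.

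**Figure D4:**
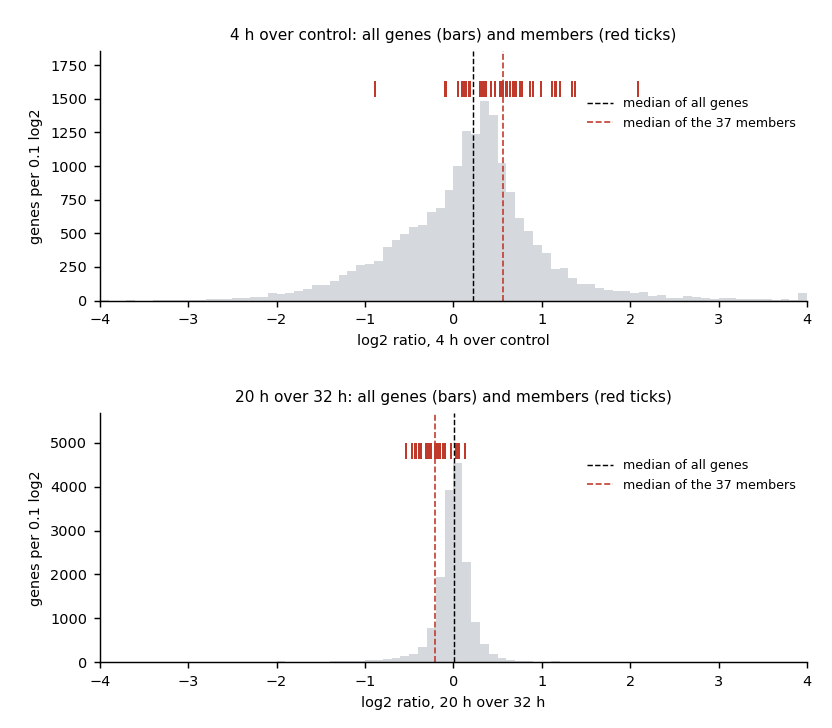
Distribution of log2 ratios (x axis) over all genes (grey bars, genes per 0.1 log2 on the y axis) for 4 h over control, above, and 20 h over 32 h, below, with the 37 ER genes as red ticks; values past 4 in size are drawn in the end bins. Dashed lines are the medians, 0.22 (all genes) and 0.56 (ER genes) at 4 h, and 0.0074 and −0.21 for 20 h over 32 h.

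A further 96 genes of the ER on the array, outside the 38, were read in the same way. At 4 h 7 of the 94 with a ratio (7.45%) were at least 2-fold higher and 2 (2.13%) at least 2-fold lower. Among all genes these shares were 11.1% and 8.26%. Among the 15806 genes well above background on both arrays, as all 94 were, they were 8.25% and 8.14%. The 7.45% is near the first of these. The median of the 94 was 0.25, near the 0.22 of all genes. The 7 were *Dnajb9*, a DnaJ cofactor of BiP, at 2.12, *Nploc4*, a cofactor of the p97 segregase, at 1.40, the factor *Nfe2l1* at 1.06, and *Atf4*, *Trib3*, *Ppp1r15a* and *Ppp1r15b* of the PERK arm, at 1.68, 2.44, 1.58 and 1.67. *Erlin2*, a membrane protein of degradation, was at −1.25 and *Creb3l2*, a membrane-bound factor, at −1.12. In the list of the PERK arm and further regulators 5 of 15 genes were at least 2-fold higher, in the list of DnaJ cofactors 1 of 8, in that of degradation and p97 cofactors 1 of 15, and in the lists of glycan processing, prolyl isomerases, targeting and export 0 of 12, 0 of 15, 0 of 14 and 0 of 15. For 20 h over 32 h 81 of 95 of these ER genes were lower at 20 h (47.8% of all genes), with a median of −0.12. The list of prolyl isomerases and other thiol oxidoreductases had 15 of 15 lower, with a median of −0.22, and that of export and retrieval 15 of 15, with a median of −0.14.

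Chaperones of other compartments were listed for comparison. At 4 h the 32 cytosolic chaperones had a median ratio of 0.63, with 6 at least 2-fold higher (11.1% of all genes). The 13 mitochondrial chaperones and proteases had a median of 0.37, with 0 at least 2-fold higher. The 4 h median of the 37 ER genes, 0.56, lay between these. For 20 h over 32 h the medians were −0.0007 for 31 cytosolic and −0.014 for 13 mitochondrial genes, and 0 of either list passed the spot error in either direction, against 17 of 37 for the ER genes. Among all genes 10.1% were lower and 8.43% higher at 20 h than at 32 h by more than the spot error. The fibroblast markers did move: 7 of 14 were lower by more than the spot error and 2 higher, with a median of −0.19.

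**Figure D5:**
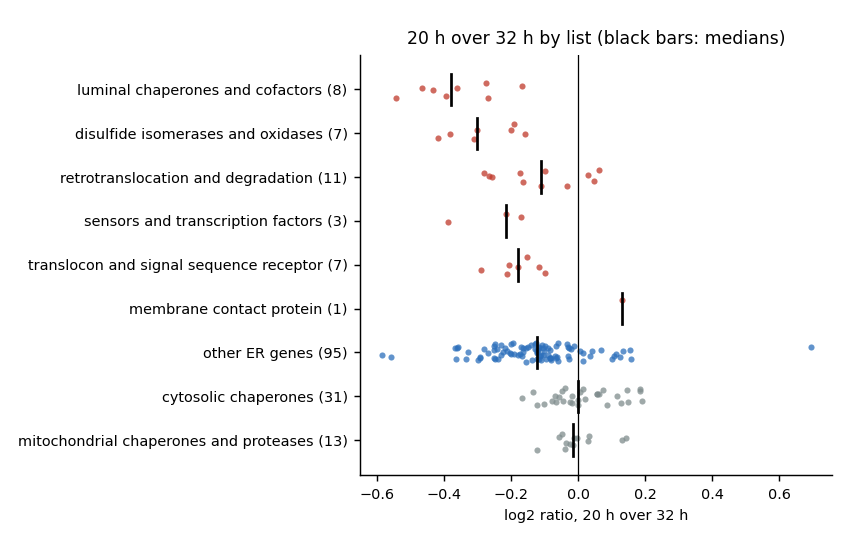
Log2 ratio of 20 h over 32 h (x axis) for each gene of the role groups of the 37 ER genes (red), the other ER genes (blue) and the chaperones of other compartments (grey), with the number of genes in parentheses and black bars at the medians. The chaperones of the ER lumen have a median of −0.38, the other ER genes of −0.12 and the cytosolic chaperones of −0.0007.

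Between 20762 and 23295 of the 39429 probes (52.7% to 59.1%) were well above background on an array, and 125 to 161 spots of an array carried an outlier flag and were not used. Up to 3 spots of the genes described here were flagged on an array, all of *Herpud2* or *Creld2*, whose other spots were used. The 14 fibroblast markers were well above background on every array, with a summed level between 921 and 1063 times that of the 75th percentile. Most of them lay below the control: 11 of 14 by more than the spot error at 4 h, 10 at 20 h and 8 at 32 h (26.6%, 23.1% and 22.6% of all genes), with medians of −0.57, −0.37 and −0.34, and 3 were at least 2-fold lower at 4 h. The part of this in the values of the ER genes was not tested. Of 7 epithelial markers *Cdh1*, *Cldn4*, *Epcam* and *Krt18*, of 6 immune markers *Ptprc*, *Emr1* and *Lyz2*, of 5 endothelial markers *Emcn* and *Tek*, and of 6 neuronal or muscle markers *Des*, *Myod1* and *Myog* were not well above background on any array. The other 3 markers of each of these lists were well above background on at least 1 array. The summed level of the immune list was 32.7 at 4 h and between 11.8 and 21.4 on the other arrays; its part in the 4 h values was not tested.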

How the data were processed

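RNA of 4 cultures was hybridized to one-color Agilent Mouse GE 4x44K v2 arrays, all on 1 slide. The authors deposited, per spot, background-subtracted intensities from Agilent Feature Extraction 10.7.3.1. They also deposited a table of signals that equal these intensities divided by 1 constant per array, which was used as an alternative. The log2 of the deposited intensity was averaged over the unflagged spots of each of 39429 probes, and the array's 75th percentile over probes was subtracted. A probe was called well above background where at least 50% of its spots carried the scanner's flag. A ratio was measured where both arrays passed; where 1 did, a bound was taken for the background counts. Genes were read from the probe with the highest mean scaled signal. Spot errors were propagated from the scanner's error. The threshold was 2-fold. The study's significance method (SAM) was not repeated, since each group has 1 array. The genes and lists were chosen with earlier results of these data known. One item of the marker lists is not reported here. All 38 genes are described; array values are given in full for those at least 2-fold from the control, for *Xbp1*, *Atf6* and *Ern1*, and where probes disagreed. Alternatives were 5 other scalings, normexp background correction (limma 3.58.1, offset 50), detection and flag rules, probe choice, the deposited table, thresholds of 1.5-fold and 3-fold, and, chosen after seeing the data, spike-in scaling without 1 probe and removal of the trend with probe GC content. Probe coordinates are in mm9 and promoters, from RefSeq, in GRCm38.p6. Scripts were run in Python 3.11.15 (numpy 2.4.6, pandas 2.3.3) and R 4.3.3 and were tested on simulated data. The number of arrays, 1 per group, limits the precision.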

Additional observations from a re-analysis of the deposited data

Results flagged for a closer look

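Some genes lay on opposite sides of the control at 4 h and at a later time, each by more than the scanner's spot error. The difference was not tested, since each side is 1 array, and both ratios share the control. By more than the spot error, 28 of the 37 were above the control at 4 h (45.6% of all genes). At 20 h 12 of the 37 were below it by as much (23.1% of all genes). The share of all genes that met both conditions is not given, so the genes below are listed without a reading of their number. At 20 h *Hspa5* was at −0.35 (1.37 at 4 h), *Canx* at −0.21 (0.33), *Manf* at −0.23 (0.91), *Pdia6* at −0.26 (0.59), *Txndc5* at −0.74 (0.35), *Herpud1* at −0.28 (1.16), *Xbp1* at −0.32 (0.70), *Sec61g* at −0.33 (0.30), *Ssr1* at −0.27 (0.30) and *Ssr2* at −0.35 (0.47). The 20 h signs of *Hspa5*, *Txndc5* and *Ssr2* held under all 5 other scalings, and those of the other 7 genes turned without scaling. At the scaling nearest to the control the ratios of *Hspa5* and *Ssr2* were −0.018 and −0.016, within the spot error, and that of *Txndc5* was −0.41. The 4 h signs of *Canx*, *Txndc5*, *Sec61g* and *Ssr1* turned under 2 or 3 of the 5. These values are from the brightest probes. For *Ssr1* the probe with the 4 h ratio of 1.89, described above, lay above the control at 20 h as well. *Txndc5* was also below the control at 32 h, at −0.44. The 75th percentile of the 20 h array, on the log2 scale, was 0.33 above that of the control before scaling, and its part in these signs was not tested.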

How the results depend on the processing

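Of the 37 genes, those at least 2-fold from the control kept their sign under all 16 alternatives. At 4 h the number of genes at least 2-fold higher was 7, and it was 2 with median scaling, 4 with quantile scaling, 1 with spike-in scaling (also without 1 spike-in probe), 3 without scaling, 18 at a threshold of 1.5-fold and 1 at 3-fold. The number at least 2-fold lower at 4 h was 0, and it was 1 (*Edem2*) with median, quantile, detected-probe percentile and spike-in scaling (also without 1 spike-in probe), without scaling and at 1.5-fold. At 20 h it was 0, and 1 at 1.5-fold. The median ratio of the 37 genes at 4 h, 0.56, was 0.20 with median scaling, 0.31 with quantile scaling, 0.16 with spike-in scaling (0.16 without 1 probe) and 0.28 without scaling, while the median of all genes moved from 0.22 to −0.13, 0.016, −0.17 and −0.046. The 20 h median of −0.14 reversed to 0.054 with spike-in scaling and to 0.19 without scaling. The other 130 values kept their direction and moved by less than the spot error or, for counts, less than 1.5 times. The median of 20 h over 32 h stayed negative, from −0.05 without scaling to −0.21. No paired analysis was possible because each group has 1 array, and no replicate could be left out. The cause of these shifts was not tested.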
